A study of Mus musculus with 105 samples.

Results

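The mRNAs of 8 genes of MHC class I antigen presentation were followed in mouse CD4+ T cells: B2m, H2-K1, H2-D1, H2-T23, Tap1, Tap2, Tapbp and Nlrc5. The list is one of gene names and holds no threshold on a measured value. It was chosen with earlier results of these data known. All 8 are in the count table of 22322 genes, and all 8 were among the 10741 genes with enough exon counts to be tested.

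The cells were CD4+ T cells purified by negative selection from spleen and lymph nodes of C57BL/6J female mice aged 6 weeks. They were resting, or activated with magnetic beads carrying antibodies to CD3 and CD28; how long they had been activated is not given in the sources used here. Cells of both states were left untreated or were incubated with triptolide (Trip, 25 µM), cycloheximide (CHX, 100 µg/ml), harringtonine (Harr, 2 µg/ml), or triptolide together with either of the other two. Activated cells were also incubated with the kinase inhibitor DRB (65 µM), alone or with cycloheximide or harringtonine. Samples were taken at 0, 1 and 3 h, with 0 h groups for untreated, triptolide and DRB cells. How long the 0 h triptolide and DRB samples were exposed to the drug is not given in the labels. Equal numbers of cells were lysed for RNA at every time. The libraries form 35 groups, 21 activated and 14 resting, each with 3 libraries numbered as replicates 2, 3 and 4. The replicates are labelled as biological, but nothing ties them to separate mice, so the p-values measure only the spread between these libraries.

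Triptolide and DRB block RNA polymerase II transcription, so mRNA levels in their presence fall as the mRNA decays. Cycloheximide freezes ribosomes during elongation and harringtonine stops them near the start codon, and both prevent translation. MHC class I molecules show peptides from inside the cell to CD8 T cells. H2-K1 and H2-D1 encode the classical heavy chains, H2-T23 encodes the nonclassical heavy chain Qa-1, and B2m encodes beta-2 microglobulin, the light chain that pairs with them. Tap1 and Tap2 form the transporter that carries peptides into the endoplasmic reticulum. Tapbp encodes tapasin, which couples that transporter to the heavy chains, and Nlrc5 encodes the transactivator of class I promoters. T cells themselves express class I, and interferons and NF-κB are known to raise it.

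In GRCm38 (mm10), B2m is at chr2:122147686-122153083 on the plus strand and Nlrc5 at chr8:94434356-94527272 on the plus strand. The 6 other genes lie in or beside the MHC on chromosome 17. H2-K1 is at chr17:33996017-34000347 (minus strand), H2-D1 at chr17:35262730-35267499 (plus) and H2-T23 at chr17:36029773-36032855 (minus). Tapbp is at chr17:33915899-33929292, Tap1 at chr17:34187553-34197225 and Tap2 at chr17:34203527-34216321, all on the plus strand.

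RefSeq's promoter table for GRCm38.p6 held 6 of the 8 genes, all but Tap2 and Nlrc5. The 250 bases up to the transcription start are shown for B2m and for H2-K1 (the upstream one of its listed starts), the members with the most mRNA per base of exon. Capitals mark matches, on either strand, to 4 motifs known from class I promoters. These were a pair of GAAA with any 2 bases between them (interferon-stimulated response element, ISRE), GGG and CC with any 5 bases between them (the NF-κB motif), CCAAT and TGACG. Matches to the NF-κB motif can overlap each other.
B2m, chr2:122147437-122147686, plus strand: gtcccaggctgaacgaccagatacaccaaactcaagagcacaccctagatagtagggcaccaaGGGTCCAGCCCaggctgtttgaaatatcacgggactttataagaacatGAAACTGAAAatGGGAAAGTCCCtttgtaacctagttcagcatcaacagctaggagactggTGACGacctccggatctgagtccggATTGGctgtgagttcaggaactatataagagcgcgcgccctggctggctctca
H2-K1, chr17:34000348-34000597, minus strand: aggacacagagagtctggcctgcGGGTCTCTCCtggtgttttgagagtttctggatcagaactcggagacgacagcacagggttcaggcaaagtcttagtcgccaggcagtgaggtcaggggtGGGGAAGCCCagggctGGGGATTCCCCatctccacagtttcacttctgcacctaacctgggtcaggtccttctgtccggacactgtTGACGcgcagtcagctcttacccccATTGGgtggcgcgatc
The B2m window held 1 match to the ISRE, 4 to the NF-κB motif, 1 to CCAAT and 1 to TGACG. The H2-K1 window held 4 matches to the NF-κB motif, 1 to CCAAT and 1 to TGACG, and none to the ISRE. Of the 32851 windows of this length in the table, 2.98% held the ISRE, 45.8% the NF-κB motif, 33.9% CCAAT and 17.8% TGACG. H2-T23 also had 1 match to the ISRE, while H2-D1, Tap1 and Tapbp had none. Only these exact patterns were searched, so a window without a match can still hold a looser form of a motif. The matches describe letters and are not sites of binding.

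Exon counts summed to between 6300 and 6479221 per library (median 2135827), and the counts of the ERCC spike-in RNAs to between 660 and 388386 (median 118443). Depth was least in replicate 3 of resting cells with triptolide for 1 h, with 6300 exon counts, and in replicate 3 of untreated activated cells at 0 h, with 141028; the next had 551975. In the former, Tap1 and H2-T23 had no count. In untreated cells at 0 h, 5 CD4 T cell markers (Cd3d, Cd3e, Cd3g, Cd4, Cd28) summed to 968 to 1046 CPM (counts scaled to library size) in activated and 1646 to 1979.9 CPM in resting cells. By edgeR, Cd28 (log2 change -1.09, adjusted p = 0.00019) and Cd3g (-0.83, adjusted p = 0.0069) were lower in activated cells. So were Cd3d (-0.78, adjusted p = 0.0099) and Cd4 (-0.50, adjusted p = 0.021), while Cd3e was not (0.41, adjusted p = 0.36). Cd8a and Cd8b1 summed to 0 to 9.90 and 7.12 to 11.6 CPM. Of the B cell markers, Igkc, the immunoglobulin kappa constant region, stood at 81.2, 6.13 and 143 CPM in activated and at 730.2, 177 and 89.4 CPM in resting cells, groups that overlapped (log2 change -1.83, adjusted p = 0.18). Cd79a, Cd79b, Ms4a1 and Cd22 were at or below 7.50 CPM in each of these libraries. The 5 class II genes summed to 30.1 to 65.0 and 20.5 to 53.6 CPM. The 4 NK cell markers summed to 4.05 to 12.3 CPM in activated and 6.05 to 10.2 CPM in resting cells, with Ncr1 at 0 in both. The 7 myeloid and dendritic cell markers summed to 4.57 to 7.52 and 7.83 to 11.2 CPM, with Cd14 at 0 in the activated and Csf1r in the resting libraries. Of them Fcgr3, an Fc receptor, was lower in activated cells (log2 change -3.55, adjusted p = 0.00076). It rests on 1, 0 and 1 counts in activated and 9, 7 and 16 in resting libraries. Itgam, of the same list, changed by 0.52 and was not called (adjusted p = 0.52).

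Changes are given on 2 scales. CPM scaled by trimmed mean of M values (TMM) compares a gene with the typical mRNA of the same library. Counts per ERCC count compare amounts for the same number of cells; on that scale fewer surviving cells and less RNA per cell cannot be told apart. A change was called when the adjusted p of edgeR's quasi-likelihood test was under 0.05 over all genes tested, and every adjusted p below is from that test.

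B2m, H2-K1 and H2-D1 were, in that order, the 3 members with the highest level per kilobase of exon in all 35 groups. In untreated activated cells at 0 h the means were 1551 CPM per kilobase for B2m, 895 for H2-K1 and 604 for H2-D1. The 5 other members lay between 33.6 (Tap2) and 126 CPM per kilobase (Tap1) in the same cells. In resting cells they lay between 19.7 (Tap2) and 48.7 CPM per kilobase (Tap1).

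Nlrc5 had the widest range of group means among the 8 members. Its mean went from 224 ± 46.2 CPM (SD, n = 3) in resting cells after 3 h of cycloheximide to 2509.9 ± 703 CPM in activated cells after 3 h of triptolide, a range of 11.2-fold. Tap1 ranged 6.99-fold, from 199 ± 181 CPM in resting cells after 1 h of triptolide, the group with the shallowest library, to 1395 ± 49.6 CPM in activated cells after 3 h of harringtonine. The ranges of the others went from 2.78-fold for H2-K1 to 5.78-fold for Tapbp. When the 35 group means of a gene were placed in order, most neighbours had overlapping libraries: from 32 of 34 neighbouring pairs for Nlrc5 to 34 of 34 for 5 members. B2m, H2-K1, H2-D1, H2-T23 and Tap2 all had their highest mean in activated cells after 3 h of DRB.

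Part of the spread within groups followed the replicate number. H2-D1 was lowest in replicate 2 in 21 of 21 activated groups, with a median over groups of 1253 CPM against 2821 CPM in replicate 3 and 2111 CPM in replicate 4. In resting cells H2-D1 was lowest in replicate 3 in 14 of 14 groups. Nlrc5 was lowest in replicate 3 in 21 of 21 activated groups, with a median of 705 CPM against 1182 and 1116 CPM in replicates 2 and 4. Tapbp was highest in replicate 4 in 20 of 21 activated groups. Where the numbers paired the libraries of a comparison, calls that changed with a term for replicate number within each cell state (below, the replicate term) are given.

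**Figure D1:**
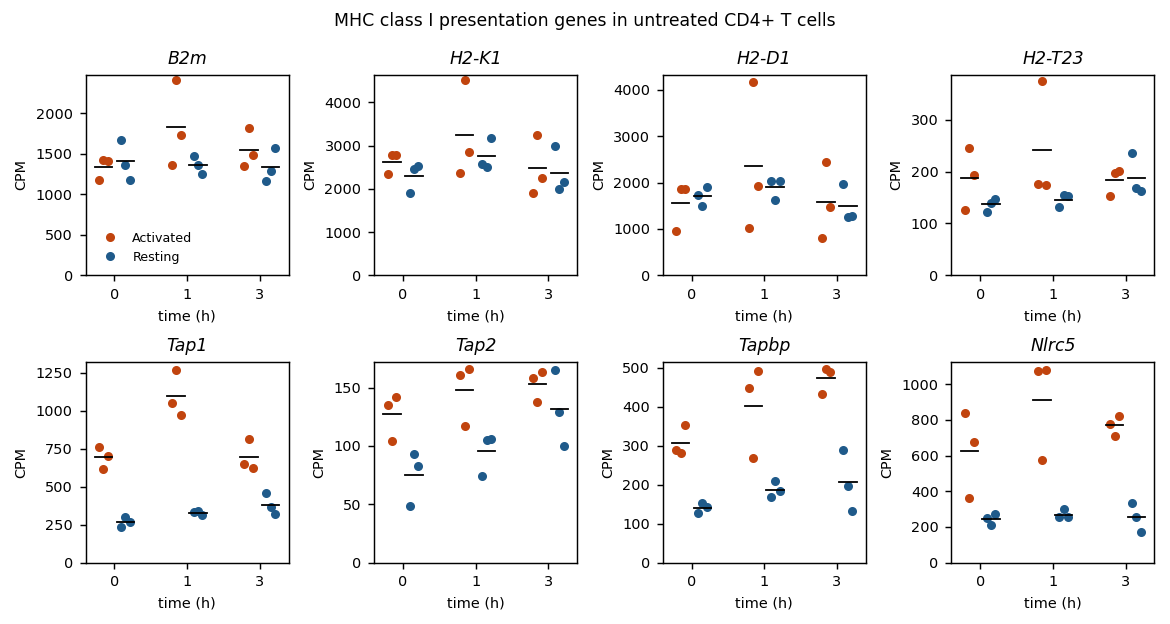
Levels in untreated cells, in CPM (TMM-scaled), at 0, 1 and 3 h. Each point is a library (n = 3 per group) and the bar is the mean. Tap1, Tapbp and Nlrc5 lie higher in activated than in resting cells at every time, while the points of B2m, H2-K1 and H2-D1 overlap.

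Activated cells held more mRNA of the peptide transporter, tapasin and the transactivator than resting cells, and no difference was called in the heavy or light chains at 0 h. Tap1 at 0 h stood at 761, 613 and 701 CPM in the 3 activated libraries, while resting libraries held 231, 302 and 267 CPM. The groups did not overlap, and Tap1 was 2.61-fold higher in activated cells (log2 change 1.38 ± 0.19 SE, adjusted p = 2.8e-08). Nlrc5 stood at 841, 362 and 673 CPM in activated and at 249, 212 and 272 CPM in resting cells. It was 2.62-fold higher (log2 change 1.39 ± 0.31, adjusted p = 0.00031), with no overlap. Its lowest activated value is from the library with 141028 exon counts, where it rests on 59 counts.

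Tapbp stood at 288, 282 and 352 CPM in activated and at 128, 152 and 143 CPM in resting cells at 0 h. It was 2.20-fold higher (log2 change 1.14 ± 0.29, adjusted p = 0.0014). Tap2 had 135, 104 and 142 CPM in activated cells and 48.2, 92.7 and 83.0 CPM in resting cells, and was 1.76-fold higher (log2 change 0.81 ± 0.20, adjusted p = 0.00094). Neither gene's groups overlapped. In the 3 fits that each left out all libraries of a replicate number, Tap2 was called in 1, Nlrc5 in 2 and Tap1 and Tapbp in 3.

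B2m stood at 1171, 1416 and 1414 CPM in activated and at 1674, 1366 and 1178 CPM in resting cells. These groups overlapped, and the difference was -0.08 ± 0.25 on the log2 scale, with a 95% interval of -0.56 to 0.40. H2-K1 differed by 0.20 (interval -0.25 to 0.64), H2-D1 by -0.14 (-0.99 to 0.71) and H2-T23 by 0.37 (-0.16 to 0.91), and none of them passed the test. The directions of B2m and H2-D1 turned under other settings, with values given in the closing section.

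Of the 8 members, 4 were thus called at 0 h, all higher in activated cells, with a median log2 change of 0.59 over the members against -0.01 over all genes. Over all genes 26.8% were called. At 1 h, 5 of 8 were called, again all higher (all genes, 37.9%): the 4 above and H2-T23 (log2 change 0.71 ± 0.26, adjusted p = 0.023). At 3 h, 3 of 8 were called, all higher (all genes, 53.8%): Nlrc5 (log2 change 1.61), Tapbp (1.21) and Tap1 (0.87). Per ERCC count at 0 h the 4 genes were called as well (all genes, 14.2%): Tap1 at 1.59 ± 0.31, Nlrc5 at 1.56 ± 0.42, Tapbp at 1.35 ± 0.42 and Tap2 at 1.01 ± 0.33 on the log2 scale. The median of all genes on that scale was 0.18, and 1 member stayed called without replicate 2 or without replicate 4.

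Intron counts, which come largely from RNA not yet spliced, differed in 3 members at 0 h (all genes tested on introns, 13.5%). Nlrc5 introns stood at 368, 103 and 352 CPM in activated and at 80.5, 76.4 and 88.6 CPM in resting cells (log2 change 1.79 ± 0.38, adjusted p = 0.00032). Tap1 introns stood at 79.7, 31.3 and 99.8 against 29.5, 24.2 and 20.1 CPM (1.66 ± 0.43, adjusted p = 0.0035). Both were separated without overlap, although the lowest activated values rest on 23 and 7 counts. Tapbp introns stood at 47.6, 17.9 and 54.8 against 17.2, 22.4 and 24.5 CPM; the groups overlapped through the shallow library, which held 4 counts (1.05 ± 0.30, adjusted p = 0.0095). Without replicate 2, 0 members were called on introns.

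Other genes of the pathway also differed between the states at 0 h. Of 6 immunoproteasome and PA28 genes, 4 rose in activated cells and none fell, among them Psme3 (log2 change 1.42), Psme2 (1.08) and Psmb9 (1.05), a catalytic subunit that replaces its constitutive counterpart. Of 8 genes of peptide loading and trimming, 1 rose and 3 fell: Tapbpl, a relative of tapasin, changed by 0.95, and the chaperone Calr (-0.96) and the glucosyltransferase Uggt1 (-0.84) were among those that fell. Of 12 tested class I and class I-like heavy chains outside the members, none rose and 2 fell: Mr1 (-1.39), which presents vitamin B metabolites, and Cd1d1 (-1.27), which presents lipids.

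Of 15 transcription factors known to act on class I promoters, 8 rose and none fell at 0 h. Irf8 changed by 5.30, Irf1 by 2.36 and Nfkb1 by 2.18 on the log2 scale. Of 27 tested interferon-stimulated genes, 14 rose and 1 fell, with Socs1 (4.34), Iigp1 (2.41) and Gbp5 (2.27) furthest up. Of 7 interferon receptor and JAK genes, 2 rose (Tyk2, 1.65, and Jak2, 1.17) and 3 fell, among them Ifngr1 (-1.68). Over all genes, 13.9% rose and 12.9% fell. Igkc reached higher and Fcgr3 was higher in resting libraries, as given above, and the part of other cell types in these differences was not tested.

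Without any agent few members moved over 3 h. In activated cells none of the 8 was called between 0 and 3 h by edgeR or by DESeq2 (all genes by edgeR, 13.6%), and 1, Tapbp, had an unadjusted p under 0.05. With the replicate term Tapbp was called (log2 change 0.69, adjusted p = 0.00078; all genes, 25.4%). In resting cells 1 of 8 was called (all genes, 6.39%). That was Tap2, at 48.2, 92.7 and 83.0 CPM at 0 h and 165, 129 and 99.7 CPM at 3 h (log2 change 0.80 ± 0.19, adjusted p = 0.0039). Without replicate 2 Tap2 was not called.

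Once transcription was blocked, Tap1 had the largest estimated loss of the 8 members in every arm, and no loss of Nlrc5 was called. In activated cells with triptolide, Tap1 per 1000 ERCC counts stood at 23.7, 14.5 and 14.9 at 0 h, at 7.94, 6.69 and 6.92 at 1 h, and at 2.24, 3.44 and 2.09 at 3 h. The 3 times did not overlap. The level at 3 h was 14.5% of that at 0 h (log2 change -2.79 ± 0.33, adjusted p = 6.3e-12). At 1 h the change was -1.30 ± 0.31 (adjusted p = 0.00037), and Tap1 was the 1 member called of 8 (all genes, 45.5%).

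With DRB, Tap1 stood at 14.2, 15.4 and 15.7 at 0 h, at 7.37, 7.59 and 8.66 at 1 h and at 5.34, 3.43 and 4.93 at 3 h, per 1000 ERCC counts. At 3 h 30.3% was left (log2 change -1.72 ± 0.31, adjusted p = 1.3e-06), and at 1 h Tap1 was again the 1 member called (-0.94, adjusted p = 0.012; all genes, 37.3%). In resting cells with triptolide Tap1 stood at 5.05, 4.97 and 5.53 at 0 h and at 1.88, 1.11 and 1.23 at 3 h, with 27.0% left (-1.89 ± 0.32, adjusted p = 1.7e-07). At 1 h in resting cells no member was called by edgeR (all genes, 37.4%), and B2m and Tap1 had an unadjusted p under 0.05; the 2 deeper libraries held Tap1 at 4.22 and 2.56, both under the 0 h values.

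**Figure D2:**
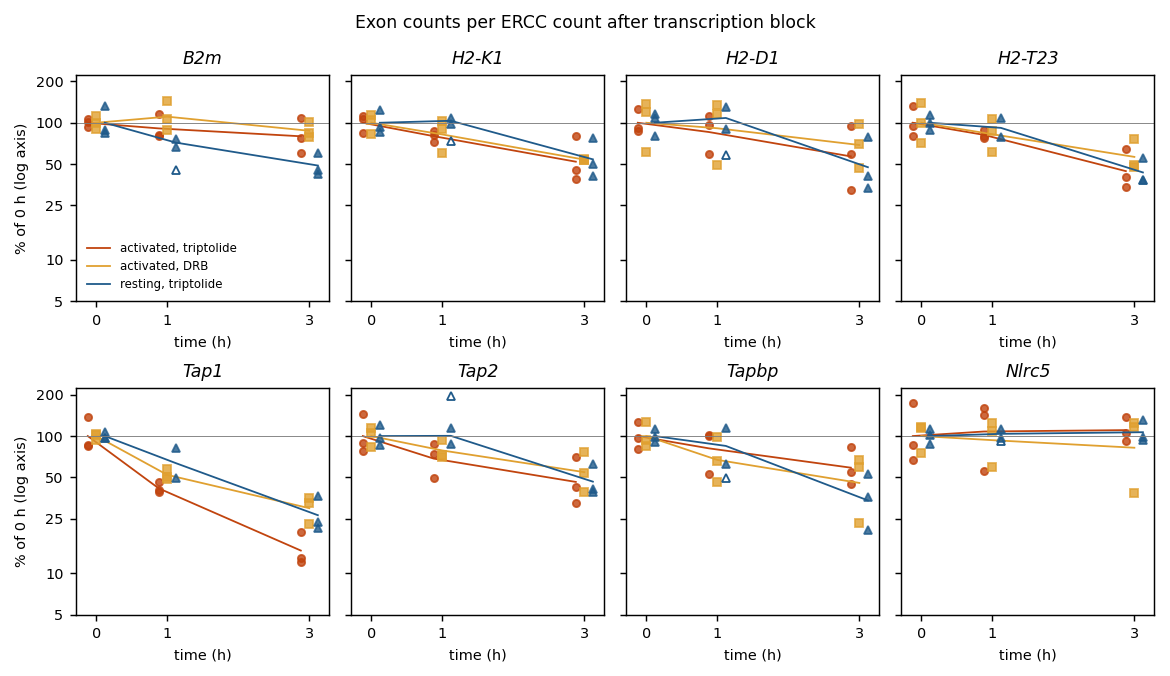
Exon counts per ERCC count as a percentage of the geometric mean at 0 h (log axis) against hours in triptolide or DRB. Points are libraries and lines join geometric means; open symbols at 1 h mark the library with 6300 exon counts, which is left out of the lines and had no Tap1 or H2-T23 count. Tap1 falls lowest, to between 12.1 and 19.9% in activated cells with triptolide, and the Nlrc5 lines end between 82.2 and 110.5%.

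Nlrc5 per 1000 ERCC counts stood at 29.8, 11.5 and 14.8 in activated cells at 0 h of triptolide and at 15.9, 23.9 and 18.1 at 3 h. The groups overlapped, with a log2 change of 0.04 and a 95% interval of -0.75 to 0.84. With DRB it stood at 16.8, 11.01 and 16.9 at 0 h and at 18.1, 5.62 and 17.1 at 3 h (-0.13, interval -0.93 to 0.66). In resting cells it stood at 5.50, 4.30 and 5.03 at 0 h and at 6.45, 4.85 and 4.61 at 3 h (0.10, interval -0.70 to 0.90). The lower ends of all 3 intervals lie above the median changes of all genes, which were -1.68, -1.54 and -1.77. The sign of the Nlrc5 change turned with the replicate left out in both activated arms.

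Introns of Nlrc5 behaved otherwise than its exons. In activated cells with triptolide they went from between 5.67 and 25.0 per 1000 ERCC counts at 0 h to between 0.472 and 1.05 at 3 h. In resting cells they went from between 1.51 and 2.29 to between 0.323 and 0.693. The intron ranges did not overlap in either state, while the exon ranges did. A fall of introns per ERCC count without overlap was seen in every other member too, in both states. Some of these falls rest on few counts at 3 h, such as 8 for H2-T23 in activated cells, and none was tested on this scale.

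B2m and the heavy chains had smaller estimated losses than the median of all genes in each arm. B2m in activated cells stood at 30.1, 32.8 and 34.5 per 1000 ERCC counts at 0 h and at 19.7, 35.1 and 25.0 after 3 h of triptolide, groups that overlapped (log2 change -0.29, adjusted p = 0.28). In resting cells B2m stood at 35.8, 23.8 and 22.7 at 0 h and at 16.3, 12.1 and 11.4 at 3 h, a change of -1.05 ± 0.25 (adjusted p = 0.00014) with no overlap. Whether B2m differed between the states was tested relative to the typical mRNA only, and the difference, 0.61 ± 0.35, was not called.

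H2-K1 stood at 79.8, 84.7 and 62.8 at 0 h and at 29.4, 60.2 and 33.7 after 3 h of triptolide in activated cells (-0.88 ± 0.28, adjusted p = 0.004). It changed by -0.90 with DRB and by -0.85 in resting cells, and was called in all 3 arms. H2-T23 was also called in all 3, at -1.17, -0.84 and -1.20. H2-D1, which had the largest standard error of the 8, was called in resting cells (-0.996, adjusted p = 0.038) and not in activated cells with triptolide (-0.71) or DRB (-0.56).

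Tap2 was called in all 3 arms, at -1.11 with triptolide and -0.83 with DRB in activated cells and at -1.11 in resting cells. Tapbp stood at 9.20, 5.80 and 7.02 at 0 h and at 3.21, 6.00 and 3.96 after 3 h of triptolide in activated cells, which was not called (-0.75). It was called with DRB (-1.01) and in resting cells (-1.48 ± 0.42, adjusted p = 0.0012), where it stood at 3.46, 3.04 and 2.77 at 0 h and at 1.62, 1.099 and 0.638 at 3 h.

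In all, 4 of 8 members fell in activated cells with triptolide over 3 h (all genes, 79.6%), 5 of 8 with DRB (all genes, 79.6%) and 7 of 8 in resting cells (all genes, 77.4%), and none rose. The median log2 change of the members was -0.82, -0.84 and -1.08. Each arm has its own 0 h group. Leaving out replicate 4 reduced these counts to 3, 1 and 3, leaving out replicate 2 reduced the first to 2, and leaving out replicate 3 reduced the DRB count to 3. Tap1 kept its call in each arm whichever replicate was left out. Once the replicate term was added, H2-D1 was called with DRB as well (log2 change -0.54, adjusted p = 0.01; all genes, 85.1%).

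Relative to the typical mRNA several members rose. In activated cells with triptolide, 5 of 8 rose and 1 fell (all genes, 47.6%). Nlrc5 went from 1007, 523 and 742 CPM at 0 h to 2357, 1896 and 3277 CPM at 3 h, a 3.32-fold rise (log2 change 1.73 ± 0.31, adjusted p = 2.9e-06). B2m rose by 1.27, Tapbp by 0.85, H2-K1 by 0.66 and Tap2 by 0.49 on the log2 scale. Tap1 went from 800.5, 660.3 and 746 CPM to 332, 273 and 379 CPM, 44.8% of its 0 h level (-1.16 ± 0.19, adjusted p = 7.4e-07). Without replicate 4, with DESeq2, or with median-of-ratios size factors in place of TMM, 3 of 8 were called in all.

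With DRB 6 of 8 rose and none fell (all genes, 39.8%): B2m (1.42), Nlrc5 (1.36), H2-D1 (1.16), H2-T23 (0.84), H2-K1 (0.72) and Tap2 (0.71). In resting cells 4 of 8 rose and none fell (all genes, 56.8%): Nlrc5 (1.80), H2-K1 (0.81), B2m (0.67) and Tap2 (0.57). In the fit with replicate numbers, H2-D1 (0.62, adjusted p = 0.00054) and H2-T23 (0.49, adjusted p = 0.017) were also called in resting cells (all genes, 65.2%), and Tapbp (0.47, adjusted p = 0.009) with DRB (all genes, 50.9%). Without replicate 4, 3 of 8 were called with DRB, and without replicate 2, 2 of 8 in resting cells. The summed B cell markers, mostly Igkc in untreated cells, stood at 110.1 to 782 CPM at 0 h and 287 to 1453 CPM at 3 h of triptolide in resting cells, and at 50.3 to 187 and 76.5 to 495 CPM in activated cells; their part in the relative rise was not tested.

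At 1 h fewer members were called than at 3 h. With triptolide in activated cells 2 of 8 were called, both higher (all genes, 24.2%): Nlrc5 (0.97, adjusted p = 0.013) and B2m (0.69, adjusted p = 0.029). The libraries of both genes overlapped between the times, and leaving out any of the 3 replicates ended the B2m call, while Nlrc5 was called only without replicate 3. With the replicate term 7 of 8 were called, of which Tap1 (-0.42) was the 1 that fell (all genes, 38.1%). With DRB B2m was called (0.87, adjusted p = 0.0091; all genes, 15.9%), and with the replicate term H2-K1 (0.42), H2-D1 (0.57) and Nlrc5 (0.61) as well (all genes, 31.3%). In resting cells, in the group with the shallowest library, Tap2 was called (0.74, adjusted p = 0.0047; all genes, 25.7%) and was lost without replicate 2 or without replicate 4.

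Relative to the typical intron signal, the introns of 4 of 8 members fell over 3 h of triptolide in activated cells and none rose (all genes, 37.4%). Tapbp introns changed by -2.28, H2-T23 introns by -1.998, Tap2 introns by -1.85 and Nlrc5 introns by -1.46. At 3 h these rest on summed intron counts of only 10 for Tapbp, 8 for H2-T23 and 16 for Tap2, against 340 for Nlrc5. In resting cells 2 fell, B2m (-1.99) and Tapbp (-1.32), and H2-K1 introns rose by 1.12 (all genes, 45.7%). Per ERCC count, H2-K1 introns in resting cells were lower at 3 h than at 0 h of triptolide. In the ERCC units used for Nlrc5 introns above, they went from between 1.76 and 2.66 to between 0.485 and 1.03. These ranges did not overlap, and the difference on that scale was not tested. The relative rise of H2-K1 introns turned to -0.044 with the normalization factors of the exon counts. The fall of B2m introns rests on 17 counts at 3 h, in groups that overlapped, and that of Tapbp introns on 12 counts. Without replicate 4, 1 of the 3 calls in resting cells was left.

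The loss of Tap1 relative to the typical mRNA was larger in activated than in resting cells with triptolide, with a difference of -0.94 ± 0.27 on the log2 scale (adjusted p = 0.021). It was the 1 member of 8 called for this difference (all genes, 6.47%). It was also larger with triptolide than with DRB in activated cells, with a difference of -1.001 ± 0.27 (adjusted p = 0.033), again as the 1 member called (all genes, 1.38%). These comparisons share the activated triptolide libraries. Both calls were lost without replicate 2, without replicate 4 and without the filter on low counts. For Nlrc5 the differences were -0.07 (interval -0.91 to 0.76) and 0.37 (interval -0.46 to 1.20).

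**Figure D3:**
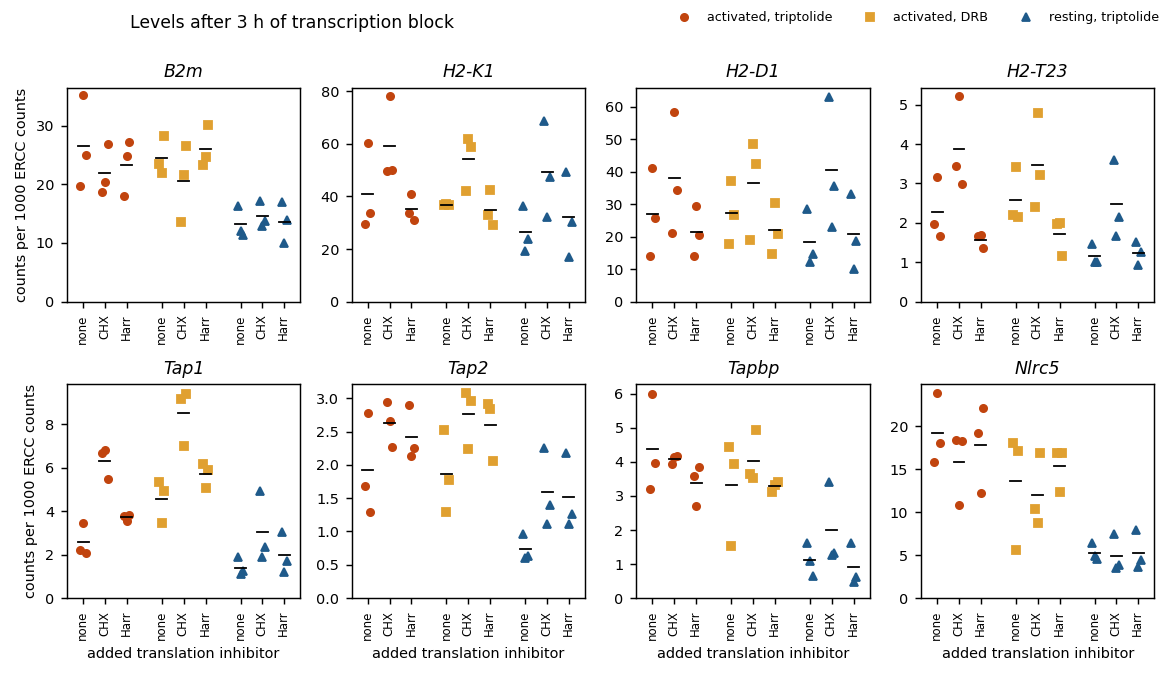
Exon counts per 1000 ERCC counts after 3 h of triptolide or DRB with no addition, with cycloheximide (CHX) or with harringtonine (Harr). Points are libraries and bars are means. In each of the 3 arms the mean of Tap1 is highest with CHX.

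Adding cycloheximide to the transcription block left more Tap1 mRNA per ERCC count. Relative to the typical mRNA, Tap1 was called higher only in activated cells with triptolide, as given below. In activated cells at 3 h Tap1 stood at 2.24, 3.44 and 2.09 per 1000 ERCC counts with triptolide alone and at 6.69, 6.82 and 5.48 with cycloheximide added. That was 2.47-fold higher, with no overlap (log2 change 1.30 ± 0.31, adjusted p = 0.00049). H2-T23 was the other member called, at 0.79 (adjusted p = 0.032; all genes, 34.9%). Once the replicate term was added, 4 were called, adding H2-K1 (0.54) and H2-D1 (0.51; all genes, 46.0%). With DRB, Tap1 stood at 5.34, 3.43 and 4.93 alone and at 9.16, 6.99 and 9.42 with cycloheximide, and was the 1 member called (0.90 ± 0.31, adjusted p = 0.018; all genes, 29.7%). In the fit with replicate numbers, H2-K1 was called there too (0.54; all genes, 39.2%). Without replicate 4 no member was called in either activated arm.

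In resting cells 5 of 8 members were higher with cycloheximide than with triptolide alone (all genes, 46.2%): H2-D1 (log2 change 1.14), Tap1 (1.12), Tap2 (1.12), H2-T23 (1.101) and H2-K1 (0.90). Tap1 stood at 1.88, 1.11 and 1.23 alone and at 4.93, 1.90 and 2.34 with cycloheximide. Tap2 stood at 0.966, 0.609 and 0.638 alone and at 2.26, 1.12 and 1.39 with it. For both genes the groups were narrowly separated and replicate 2 gave the highest value in each. The median change of all genes was 0.86. With the replicate term Tapbp was called as well (0.77; all genes, 52.2%), and without replicate 4 no member was called.

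For Nlrc5 no increase with cycloheximide was called in any arm: its change per ERCC count was -0.28 (interval -1.07 to 0.51) in activated cells with triptolide, -0.17 (-0.97 to 0.62) with DRB and -0.10 (-0.89 to 0.70) in resting cells. The medians of all genes were 0.62, 0.59 and 0.86. The Nlrc5 direction turned without replicate 3 in both triptolide arms and without replicate 2 with DRB. Harringtonine added to the block gave 0 of 8 calls in activated cells with triptolide (all genes, 22.7%) and with DRB (all genes, 25.8%) by edgeR, and 0 of 8 at an unadjusted p under 0.05 in either. In resting cells it gave 1 of 8 (all genes, 26.9%): Tap2, at 2.17, 1.12 and 1.27 against 0.966, 0.609 and 0.638 per 1000 ERCC counts (log2 change 1.05 ± 0.33, adjusted p = 0.0098). Once the replicate term was added, H2-T23 was called with DRB and harringtonine, at -0.57 (adjusted p = 0.041; all genes, 36.9%). In each arm the cycloheximide and harringtonine comparisons share the libraries with the block alone.

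Relative to the typical mRNA, B2m and Nlrc5 fell when cycloheximide was added. In activated cells with triptolide 1 member rose and 3 fell (all genes, 27.3%): Tap1 rose by 0.64, and Nlrc5 (-0.95), B2m (-0.91) and Tapbp (-0.74) fell. B2m went from 2918, 2792 and 4529.5 CPM with triptolide alone to 1419.9, 1601 and 2432 CPM with cycloheximide, without overlap. With DRB 2 of 8 fell (all genes, 17.6%), B2m (-1.05) and Nlrc5 (-0.84). In resting cells 2 of 8 fell (all genes, 35.2%), Nlrc5 (-1.04) and B2m (-0.73). Leaving out a replicate ended several of these calls: B2m in resting cells and Tapbp in activated cells whichever replicate was left out, B2m with DRB without replicate 3, and Nlrc5 without replicate 2 or 4 in both activated arms and without replicate 4 in resting cells. With DRB, RLE size factors, DESeq2 and coding sequence counts each left 1 call, B2m.

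Harringtonine lowered H2-T23 (-0.90), Tapbp (-0.77) and H2-K1 (-0.58) on this scale with triptolide in activated cells (3 of 8; all genes, 24.7%), where the Tapbp call ended whichever replicate was left out. It lowered H2-T23 (-1.37) and H2-K1 (-0.80) with DRB (2 of 8; all genes, 18.7%) and Tapbp (-0.93) in resting cells (1 of 8; all genes, 24%). In the fit with replicate numbers, it gave 5 calls with DRB, adding H2-D1 (-0.99), B2m (-0.58) and Tapbp (-0.56; all genes, 30.4%). In resting cells it then gave 5, adding Nlrc5 (-0.63), B2m (-0.53), H2-D1 (-0.44) and a rise of Tap2 (0.47; all genes, 37.8%). With cycloheximide and DRB the term added H2-D1 (-0.39; all genes, 32.1%). Without replicate 4, 1 member was called with cycloheximide and 0 with harringtonine in the activated triptolide arm, and 0 with cycloheximide in resting cells.

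Translation inhibitors given without a transcription block raised Tap1 in activated cells. At 3 h Tap1 stood at 648, 815 and 619 CPM untreated, at 1365, 1204 and 1485 CPM with cycloheximide and at 1339, 1434 and 1412 CPM with harringtonine. The treated libraries all lay above the untreated ones. The rise was 1.95-fold with cycloheximide (log2 change 0.96 ± 0.19, adjusted p = 3.7e-05) and 2.01-fold with harringtonine (1.01 ± 0.19, adjusted p = 1.6e-05). These comparisons share their untreated libraries.

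Tapbp fell in the same cells, from 433, 496 and 488 CPM to 258, 150.4 and 337 CPM with cycloheximide (-0.92, adjusted p = 0.0064) and to 280, 234 and 332 CPM with harringtonine (-0.74, adjusted p = 0.029). H2-T23 fell with harringtonine (-0.95, adjusted p = 0.0028). That made 1 member higher and 1 lower with cycloheximide (all genes, 30%) and 1 higher and 2 lower with harringtonine (all genes, 31%). With the replicate term 4 were called with cycloheximide, adding B2m (-0.50) and H2-T23 (-0.46; all genes, 42.5%). With harringtonine 5 were then called, adding B2m (-0.57) and a rise of Nlrc5 (0.44; all genes, 44.3%). The harringtonine call of Tapbp ended whichever replicate was left out (log2 change -0.85 to -0.51). Without replicate 3, 1 member was called with cycloheximide, and without replicate 4, 1 with harringtonine.

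In resting cells Tap1 went from 455, 365 and 319.9 CPM to 617, 514 and 516 CPM with cycloheximide (0.53 ± 0.19, adjusted p = 0.028), while Tapbp (-0.83), B2m (-0.72) and Tap2 (-0.52) fell (4 of 8 called; all genes, 26.3%). These calls went to 0 without replicate 2 or without replicate 4 and to 1 without replicate 3 or with DESeq2. With harringtonine Tapbp (-1.07), B2m (-0.79) and Tap2 (-0.73) fell (3 of 8; all genes, 20.5%). Tap1, at 545, 470.3 and 503 CPM, was not called with harringtonine, and with the replicate term it was (0.43, adjusted p = 0.02; all genes, 36.9%).

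Per ERCC count, Tap1 in activated cells went from 17.97, 19.4 and 18.6 per 1000 to 58.6, 40.2 and 56.1 with cycloheximide (log2 change 1.47 ± 0.31, adjusted p = 0.00013) and to 52.0, 46.5 and 49.8 with harringtonine (1.40 ± 0.31, adjusted p = 0.0003). It was the 1 member called in each (all genes, 28% and 24.1%). Once the replicate term was added, 4 were called with cycloheximide, adding Nlrc5 (0.74), H2-D1 (0.69) and H2-K1 (0.57), all higher (all genes, 42.2%). With harringtonine 3 were then called, adding Nlrc5 (0.82) and a fall of H2-T23 (-0.58), with 38.2% of all genes called. In resting cells 4 of 8 rose with cycloheximide (all genes, 61.4%): Tap1 (1.57), H2-D1 (1.25), H2-K1 (1.04) and H2-T23 (0.98). With harringtonine 3 of 8 rose (all genes, 60.3%): Tap1 (1.44), Nlrc5 (1.05) and H2-K1 (0.71). The medians of all genes there were 1.02 and 1.004. The replicate term brought the resting counts to 5, adding Nlrc5 (0.89; all genes, 71.2%), and to 5, adding H2-D1 (0.97) and H2-T23 (0.68; all genes, 72.5%). Without replicate 4 they were 1 and 1.

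**Figure D4:**
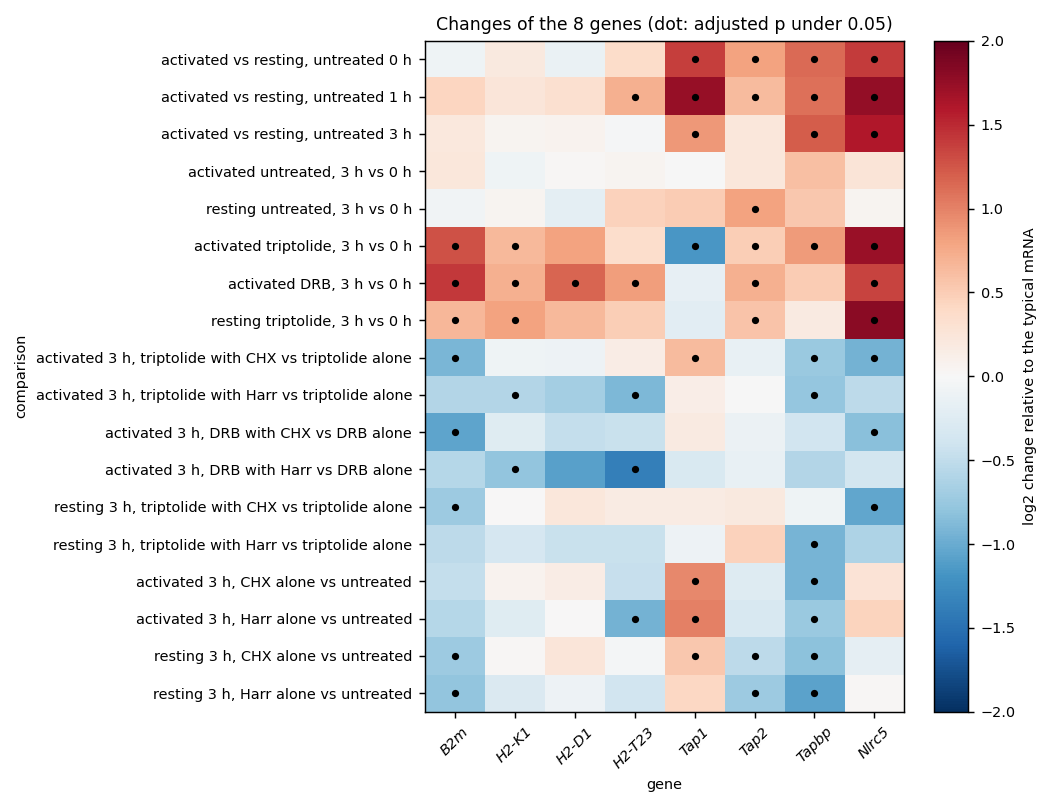
Log2 change of each member (columns) relative to the typical mRNA in each comparison (rows); red is higher and blue lower in the first-named group, and a dot marks an adjusted p under 0.05. In activated cells with triptolide for 3 h, Tap1 stands at -1.16 and Nlrc5 at 1.73.

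Cycloheximide and harringtonine were also compared with each other. With triptolide in activated cells 1 of 8 members differed (all genes, 4.88%): H2-T23 stood at 260.4, 409 and 269.8 CPM with cycloheximide and at 156, 160.2 and 139 CPM with harringtonine (log2 difference 1.04 ± 0.26, adjusted p = 0.0063). With DRB it again was the 1 member called (0.92 ± 0.26, adjusted p = 0.026; all genes, 3.63%), at 219, 374 and 272 against 168, 161 and 124 CPM. Neither pair of groups overlapped. In resting cells with triptolide none was called by edgeR (all genes, 2.17%), and H2-T23 and Tapbp had an unadjusted p under 0.05. Without a block none was called by edgeR in activated cells (all genes, 0%) or in resting cells (all genes, 0.00931%), and 0 of 8 had an unadjusted p under 0.05. DESeq2 called none in these 3 comparisons either. Without replicate 4 neither H2-T23 call was left, and without replicate 3 the one with DRB was not.

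In the fit with replicate numbers, 4 members were called with triptolide in activated cells, adding H2-D1 (0.52), Tap1 (0.51) and H2-K1 (0.47), all higher with cycloheximide (all genes, 11.3%). With DRB 6 were called: these 4 higher with cycloheximide, and B2m (-0.48) and Nlrc5 (-0.48) higher with harringtonine (all genes, 11.03%). In resting cells with triptolide 3 were called, Tapbp (0.84), H2-D1 (0.67) and H2-T23 (0.61; all genes, 6.29%). Whether the response to cycloheximide differed between activated and resting cells was tested too. No member was called by edgeR for that difference with triptolide (all genes, 0.289%) or without (all genes, 16.6%), none by DESeq2, and 0 of 8 had an unadjusted p under 0.05. For Tap1 the differences were 0.47 (interval -0.06 to 1.01) and 0.43 (interval -0.09 to 0.95).

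After the transcription block most other genes of the pathway fell, as most genes did. Per ERCC count in activated cells with triptolide, all 7 interferon receptor and JAK genes fell, with a median of -3.14 and Ifnar2 (-4.65), Ifngr1 (-4.50) and Ifngr2 (-3.89) furthest. Of 15 class I transcription factors 14 fell (median -2.62), among them Rfxap (-4.40), a subunit of the RFX complex, and Nfya (-3.94), a subunit of the CCAAT-binding factor. Of 6 immunoproteasome and PA28 genes 5 fell (median -1.98), with Psmb10 at -3.56 and Psmb9, the neighbour of Tap1, at -2.38.

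Of 27 interferon-stimulated genes 25 fell (median -2.22), of the 12 other heavy chain genes 9 (median -1.64), and of the 8 loading genes 6 (median -0.84). In that arm 77.7% of all genes fell. With cycloheximide added, 4 of 6 immunoproteasome genes were higher than with triptolide alone, with Psmb10 at 2.80. Of the 15 transcription factors 9 were higher, with Nfya at 2.19 and Irf9 at 2.00, and 1 was lower; 34.6% of all genes were higher. Cycloheximide given alone to activated cells raised 15 of 27 interferon-stimulated genes per ERCC count and lowered 1, and raised 10 of 15 transcription factors, with Irf1 at 3.06, 6 of 7 receptor and JAK genes and 6 of 12 other heavy chain genes. It raised none and lowered 2 of 8 loading genes, and raised 1 and lowered 1 of 6 immunoproteasome genes, while 25.2% of all genes rose. Relative to the typical mRNA it raised 8 and lowered 2 of the 27 interferon-stimulated genes. It raised 7 of 15 transcription factors, 5 of 7 receptor and JAK genes and 4 of 12 heavy chain genes. It lowered 3 of 8 loading genes, and raised 1 and lowered 4 of 6 immunoproteasome genes. On that scale 15.0% of all genes rose and 15.0% fell.

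Over the 35 group means of log2 CPM, the patterns of the members were compared with those of the other tested genes by Pearson's r. Nlrc5 was most like Hivep2 (r = 0.976) and Zfp827 (0.972), Tapbp like Clptm1l (r = 0.969) and Ppp1r14b (0.958), and Tap1 like Icam1 (r = 0.956) and Orai1 (0.947). B2m was most like Gnas (r = 0.950) and Ybx1 (0.946), and Tap2 like Isyna1 (r = 0.935) and Trap1 (0.931). H2-D1 was most like Sdf4 (r = 0.904) and Ndfip2 (0.899), and H2-T23 like Nudt3 (r = 0.888) and Babam1 (0.877). H2-K1 and H2-D1 had an r of 0.940 with each other, while Tap1 had -0.259 with H2-D1, -0.140 with H2-K1 and -0.0953 with B2m. The 35 points share treatments and sequencing depth, so these values describe the groups and carry no test.

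Several counts may miss reads of their own gene or hold reads of others. Of the 50-base stretches in the exons of H2-K1, 9.60% also occur in another gene, as do 12.8% in H2-D1 and 14.5% in H2-T23, while B2m has none. Reads aligned at several places were left out, so reads from such stretches can be lost from these counts. Tapbp shares 29.0% of its exon bases with other genes, mostly the antisense Gm19412, and Tap2 18.5%, with Gm15821 and Gm20496 on the other strand. Tap1 shares 3.87% with Psmb9 and Nlrc5 0.920% with a lincRNA, both on the other strand. Whether strand was used in counting is not given in the sources used here, so the values of these 7 members are uncertain to that extent.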

How the data were processed

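RNA-seq of total RNA with added ERCC spike-in RNAs was deposited by the authors as raw read counts per gene over exons, introns and coding sequence, for 105 libraries. The submitters' processing notes name TopHat2 2.0.13, Bowtie, HTSeq and the build mm10; the counting options and the annotation release are not given in the sources used here. The deposited table holds 22322 genes, 22124 of them with a symbol, and 92 spike-ins; 315 further columns that match no sample were not used. Reads assigned to no gene made up 75.8 to 97.3% of a library (median 88.3%), mostly reads aligned at several places, and were left out of library sizes and tests.

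Libraries were grouped by cell state, agent and time, and no pair of libraries held identical exon counts. The 8 members and the gene lists were chosen with earlier results of these data known. Exon counts were fitted with edgeR 4.0.16 (R 4.3.3; limma 3.58.1) with TMM factors, 35 group means in 1 fit, genes kept by filterByExpr (10741 on exons, 10750 on introns), the robust quasi-likelihood test and Benjamini-Hochberg adjustment over all genes tested. A second fit took the summed ERCC counts as library size, and another used introns. Standard errors were worked back from the log2 change and its F statistic, and the 95% intervals take a normal distribution. On simulated counts, only the TMM fit of activated against resting untreated cells at 0 h was tried. Those counts held no replicate effect, and the ERCC and intron fits were not simulated. All members are named; of each pathway list, up to 3 called genes with the largest change could be named, and of pattern neighbours the 2 most like each member; those of H2-K1 are not reported here.

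The replicate numbers are the labels' own. Deviations from group means correlated with a median r of 0.336 between same-numbered and -0.161 between other libraries within a cell state. Across states the values were -0.0769 and 0.0363. Deviations cancel within each group of 3 libraries, so the second value of each pair follows largely from the first. From the same-numbered values, a replicate number was taken as pairing libraries within a state only. Exon lengths and overlaps come from GENCODE vM21 gene models of GRCm38, promoters from RefSeq. Alternatives were RLE size factors, DESeq2 1.42.0, no count filter, coding sequence counts, replicate terms, each replicate left out, and the 2 shallowest libraries left out.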

Additional observations from a re-analysis of the deposited data

Results flagged for a closer look

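The change of Tap1 relative to the typical mRNA differed between conditions. The 3 h triptolide change was -1.16 ± 0.19 in activated and -0.22 ± 0.19 in resting cells, and the difference of -0.94 passed the test for a difference between cell states (edgeR, adjusted p = 0.021). In activated cells the 3 h change was -0.16 ± 0.19 with DRB, and the difference of -1.001 between triptolide and DRB also passed (edgeR, adjusted p = 0.033). Both share the activated triptolide libraries. Neither passed without replicate 2, without replicate 4 or without the filter on low counts, and the second also failed with coding sequence counts.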

How the results depend on the processing

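The number of members called was recomputed under each alternative; a count within 1.5 times the first is taken as kept, and the cause of a change was not tested. With median-of-ratios (RLE) size factors, and likewise with DESeq2, 25 of 30 counts were kept, and the others went from 1 to 2 for Harr added to triptolide in resting cells, from 2 to 1 for CHX added to DRB, from 3 to 1 for Harr added to triptolide in activated cells, from 4 to 1 for CHX alone in resting cells, from 6 to 3 for triptolide 3 h in activated cells. Without the filter on low counts 39 of 47 were kept, and the others went from 0 to 1 for CHX against Harr with triptolide in resting cells, from 1 to 0 for the triptolide change between cell states and the change between triptolide and DRB, from 1 to 2 for triptolide 1 h in resting cells, from 2 to 1 for triptolide 1 h in activated cells and CHX added to triptolide in activated cells per ERCC count, from 4 to 1 for CHX alone in resting cells, from 4 to 2 for triptolide 3 h in resting cells. With coding sequence counts 25 of 30 were kept, and the others went from 1 to 0 for the change between triptolide and DRB, from 2 to 1 for triptolide 1 h in activated cells, CHX added to DRB and CHX added to triptolide in resting cells, from 4 to 2 for CHX alone in resting cells. Without the 2 shallowest libraries 46 of 47 were kept, and the count went from 1 to 2 for triptolide 1 h in resting cells.

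With the replicate number as a block, common to both cell states, 42 of 50 counts were kept, and the others went from 0 to 1 for CHX against Harr with triptolide in resting cells, from 0 to 2 for triptolide 1 h in resting cells per ERCC count, from 1 to 2 for DRB 1 h, CHX alone in activated cells per ERCC count and Harr alone in activated cells per ERCC count, from 1 to 4 for triptolide 1 h in resting cells and Harr added to triptolide in resting cells, from 2 to 4 for Harr added to DRB. With the replicate block within each cell state, chosen after seeing the data, 26 of 47 were kept, and the others went from 0 to 1 for untreated activated cells over 3 h and Harr added to DRB per ERCC count, from 0 to 2 for triptolide 1 h in resting cells per ERCC count, from 0 to 3 for CHX against Harr with triptolide in resting cells, from 1 to 2 for the triptolide change between cell states and CHX added to DRB per ERCC count, from 1 to 3 for untreated resting cells over 3 h and Harr alone in activated cells per ERCC count, from 1 to 4 for DRB 1 h, CHX against Harr with triptolide in activated cells and CHX alone in activated cells per ERCC count, from 1 to 5 for Harr added to triptolide in resting cells, from 1 to 6 for triptolide 1 h in resting cells and CHX against Harr with DRB, from 2 to 4 for CHX alone in activated cells and CHX added to triptolide in activated cells per ERCC count, from 2 to 5 for Harr added to DRB, from 2 to 7 for triptolide 1 h in activated cells, from 3 to 5 for Harr alone in activated cells and Harr alone in resting cells per ERCC count, from 3 to 6 for Harr added to triptolide in activated cells. It added 68 calls and lost 0 over 47 fits and changed no other call. The numbers paired the libraries, with every same-numbered correlation of deviations above 0.1, in 19 of 26 comparisons of 2 groups; the other comparisons share only a number, and their blocked counts stand here alone.

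Leaving out each replicate number in turn, the lowest and the highest count lay between 0 and 1 for CHX added to triptolide in resting cells, Harr added to triptolide in resting cells, CHX alone in resting cells, CHX against Harr with triptolide in activated cells, CHX against Harr with DRB, the triptolide change between cell states and the change between triptolide and DRB, between 0 and 1 per ERCC count for DRB 1 h, triptolide 1 h in resting cells, Harr added to triptolide in activated cells, CHX added to DRB, Harr added to triptolide in resting cells and Harr alone in activated cells, between 0 and 2 for untreated resting cells over 3 h, triptolide 1 h in activated cells, DRB 1 h and Harr added to triptolide in activated cells, between 0 and 3 on introns for activated against resting at 0 h, between 0 and 4 for triptolide 1 h in resting cells. They lay between 0 and 4 per ERCC count for CHX added to triptolide in activated cells, between 0 and 5 per ERCC count for CHX added to triptolide in resting cells, between 1 and 1 for CHX added to DRB, between 1 and 2 for CHX alone in activated cells, Harr alone in activated cells and Harr alone in resting cells, between 1 and 3 for CHX added to triptolide in activated cells and Harr added to DRB. They lay between 1 and 3 on introns for triptolide 3 h in resting cells, between 1 and 4 per ERCC count for activated against resting at 0 h, between 1 and 5 per ERCC count for DRB 3 h, CHX alone in resting cells and Harr alone in resting cells, between 2 and 3 for triptolide 3 h in resting cells, between 2 and 4 for activated against resting at 0 h. They lay between 2 and 5 per ERCC count for triptolide 3 h in activated cells, between 3 and 4 for activated against resting at 1 h, between 3 and 6 for triptolide 3 h in activated cells and DRB 3 h, between 3 and 7 per ERCC count for triptolide 3 h in resting cells.

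Single log2 changes turned direction in 12 cases, one of them called. The difference of B2m between activated and resting cells at 0 h, -0.079, was 0.048 with RLE size factors and 0.047 with DESeq2, and lay at -0.23 to 0.19 leaving out a replicate; that of H2-D1, -0.14, was 0.0044 with DESeq2 and lay at -0.33 to 0.17. Per ERCC count and leaving out a replicate, Nlrc5 lay at -0.39 to 0.67 (all replicates, 0.043) for triptolide 3 h in activated cells, at -0.30 to 0.061 (all replicates, -0.13) for DRB 3 h, at -0.52 to 0.11 (all replicates, -0.28) for CHX added to triptolide in activated cells, at -0.36 to 0.18 (all replicates, -0.17) for CHX added to DRB, at -0.34 to 0.038 (all replicates, -0.097) for CHX added to triptolide in resting cells. H2-K1 introns in resting cells with triptolide went from a called 1.12 to -0.044 with the factors of the exon counts. Apart from that of H2-K1 introns, no called change among the 128 of single members recomputed reversed under any setting. Depth limits the values in the 2 shallowest libraries, where a member can rest on a few counts or on none.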

Other observations

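B2m introns were low already in the 0 h groups with triptolide. Per 1000 ERCC counts they stood at 0.220, 0.415 and 0.466 in activated and 0.294, 0.649 and 2.27 in resting cells at 0 h of triptolide, from the lowest to the highest library. In untreated cells at 0 h they stood at 2.89, 4.30 and 4.57 and 2.39, 2.58 and 3.42. The B2m ranges did not overlap in either state. H2-D1 introns in activated cells were also lower without overlap, at 0.491 to 0.905 against 1.43 to 3.19 untreated. The Tap1 and Tapbp ranges overlapped in activated cells, with medians of 0.634 against 3.05 and 0.501 against 1.82. In resting cells the ranges of all members but B2m overlapped. None of these differences was tested. The 0 h triptolide groups are also the reference for the changes in triptolide given above.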
